A study of Mus musculus with 14 samples.

Results

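De novo fatty acid synthesis was followed through 10 genes, Fasn, Acaca, Acacb, Acly, Scd1, Scd2, Elovl6, Srebf1, Me1 and Thrsp, which were taken by name and make up 10 of the 16124 genes in the expression table. All 10 were in the table. RNA was sequenced from primary mammary epithelial cells of 7 wild-type (WT) and 7 Usp22 OE/OE females, all nulliparous and 3.5 months old, with 1 library per mouse. OE/OE mice carry on both ROSA26 alleles a mouse Usp22 cDNA with FLAG and MYC tags behind the CAGGS promoter, and ZP3-Cre had removed the STOP cassette in the egg. The transgene was therefore on in every tissue, beside the endogenous Usp22 gene, and the WT mice were littermates, forming the pairs numbered 1, 3, 4, 5, 6, 7 and 8. Whether the WT mice carried ZP3-Cre is not given in the sources used here.

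Fatty acid synthesis turns citrate exported from the mitochondrion into acetyl-CoA, carboxylates that to malonyl-CoA, and joins the units into palmitate at the expense of NADPH. The product is elongated, desaturated and built into triglyceride, and transcription of the enzymes is driven largely by SREBP-1c together with NF-Y and Sp1. In the mammary gland the pathway is known for its rise at lactation, when it makes milk fat, and fat cells of the same gland also run it.

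The promoters are shown first for Fasn, the synthase, for Acly, which differed between genotypes below, and for Elovl6, whose litter mean was high in the same litters as that of Fasn. Each line gives the RefSeq sequence upstream of the start on the gene's own strand, build GRCm38.p6, with CCAAT boxes (CCAAT, or ATTGG on the opposite strand) and GC boxes (GGGCGG, or CCGCCC) in capitals. Fasn is at chr11:120824548-120824797 on the minus strand, Acly at chr11:100528001-100528250 on the minus strand, and Elovl6 at chr3:129532136-129532354 on the plus strand, the last without the 31 bases nearest the RefSeq start, which lie inside the GENCODE gene.
Fasn: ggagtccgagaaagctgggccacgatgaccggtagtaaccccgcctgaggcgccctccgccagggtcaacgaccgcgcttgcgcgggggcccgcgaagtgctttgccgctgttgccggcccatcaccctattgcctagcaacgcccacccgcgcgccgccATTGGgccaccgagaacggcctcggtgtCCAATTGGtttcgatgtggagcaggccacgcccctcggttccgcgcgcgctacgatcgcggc
Acly: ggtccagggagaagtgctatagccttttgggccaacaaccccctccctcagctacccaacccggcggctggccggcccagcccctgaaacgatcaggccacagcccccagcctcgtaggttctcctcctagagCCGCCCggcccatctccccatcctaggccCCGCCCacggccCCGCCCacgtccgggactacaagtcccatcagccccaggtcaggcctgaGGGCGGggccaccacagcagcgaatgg
Elovl6: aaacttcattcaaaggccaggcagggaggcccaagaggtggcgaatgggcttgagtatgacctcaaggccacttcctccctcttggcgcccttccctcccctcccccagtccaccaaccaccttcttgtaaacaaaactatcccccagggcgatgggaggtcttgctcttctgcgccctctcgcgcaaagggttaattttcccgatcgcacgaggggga
The Fasn window held 3 CCAAT boxes, 90 to 86, 62 to 58 and 59 to 55 bases before the start, of which the last 2 overlap on opposite strands. The Acly window held 4 GC boxes, 117 to 112, 88 to 83, 76 to 71 and 27 to 22 bases before the start. None of the 4 motifs searched on both strands was in the Elovl6 window. The other motifs were the E-box CACGTG and the sterol regulatory element TCACNCCAC. In the 250 bases upstream of each start, 8 of the 10 genes matched the RefSeq table by symbol, with 11 windows between them, and Scd1 and Scd2 did not match. CCAAT was in 6 of the 11 windows (of Acacb, Fasn, Me1, Srebf1 and Thrsp) against 33.9% of all 32851 windows, GGGCGG in 4 of the 11 (of Acly, Me1 and Srebf1) against 32.7%, and CACGTG and TCACNCCAC in none, against 6.02% and 1.05% of all windows. The windows of Acaca and Acacb lay inside the GENCODE gene, as did those of Me1 and Srebf1 other than the outermost of each. CCAAT of Acacb and Me1 was found only in such inner windows. These counts describe letters in the windows and not bound sites.

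The deposited values are normalized counts, fragments per gene divided by a size factor for the library. The fragments recovered from them totalled 20125106 to 41835978 per library. Usp22 itself ranged from 3500.0 to 5379.7 normalized counts over the WT libraries and from 74948 to 144288 over the OE/OE libraries, so every library fitted its genotype label. Luminal epithelial markers were high in both genotypes, the mean log2 level being 14.40 ± 0.18 for WT and 14.45 ± 0.16 for OE/OE mice (SD, n = 7). Markers of fibroblasts (12.83 in WT and 12.40 in OE/OE) and of endothelium (12.06 and 11.94) were high as well. The RNA was therefore not of epithelial cells alone. Of milk protein genes searched, 4 of 7 (Csn2, Wap, Csn1s2a and Glycam1) were not analysed here. The median normalized count in WT and OE/OE was 9760 and 13344 for Csn3, 281 and 135 for Lalba, and 4.65 and 15.4 for Csn1s1. Their mean log2 level, OE/OE minus WT, ran from -2.39 in pair 1 to 2.20 in pair 3 (exact two-sided sign-flip p = 0.781). Among the OE/OE libraries that of pair 4 had the lowest mean log2 level of endothelial markers (10.38, next 11.67), fibroblast markers (11.54, next 11.96) and adipocyte markers (5.42, next 5.56), while the WT library of that pair lay within the range of the other WT libraries for all 3 lists. Results that rest on pair 4 are given with and without it.

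Most of the fatty acid synthesis genes were well expressed in these preparations from nulliparous mice. Divided by exon length, and averaged over the 14 libraries, the normalized count per kilobase was highest for Acly, ATP-citrate lyase, which makes cytosolic acetyl-CoA, at 1632 ± 163 (SD). Scd1 and Scd2, the desaturases that make oleate and palmitoleate, followed at 1324 ± 372 and 980.3 ± 320.0 per kilobase. Srebf1, which encodes SREBP-1, was at 929.7 ± 151, the fatty acid synthase gene Fasn at 798 ± 179.9 and Me1, the cytosolic malic enzyme that supplies NADPH, at 697 ± 172 per kilobase. These 6 genes lay between the 85.3 and 94.0 percentiles of all genes per kilobase. Elovl6, the elongase that takes palmitate to stearate, was at 171 ± 68.9, and Acaca, acetyl-CoA carboxylase 1 of the cytosol, at 134 ± 35.3 per kilobase, near the middle of all genes (percentiles 55.8 and 50.3). Acacb, the carboxylase 2 of the mitochondrial surface, whose malonyl-CoA restrains fatty acid oxidation, was at 47.3 ± 15.0 and Thrsp (Spot 14), a small nuclear protein linked to lipogenic gene expression, at 38.4 ± 21.4 per kilobase.

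The order was firm in places only. Me1 was above Elovl6 and Acaca above Acacb in 14 of 14 libraries. Scd2 was above Srebf1 in 7 of 14 libraries and Acacb above Thrsp in 9 of 14, so these neighbours did not differ beyond their spread. The remaining neighbours kept the order in 11 or 12 of 14 libraries. Acaca thus had about the level of a middling gene per kilobase while Fasn, which acts on its product, lay above it. Of the 2 carboxylase genes the cytosolic one was the higher in every mouse. Exon length took in all annotated exons, 17074 bases for Acaca, with 7038 coding, and 10947 for Fasn. The place of Acaca and the size of its gap to Fasn depend on that choice. Undivided counts were 1362 to 3407 for Acaca and 5914 to 13634 for Fasn.

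**Figure D1:**
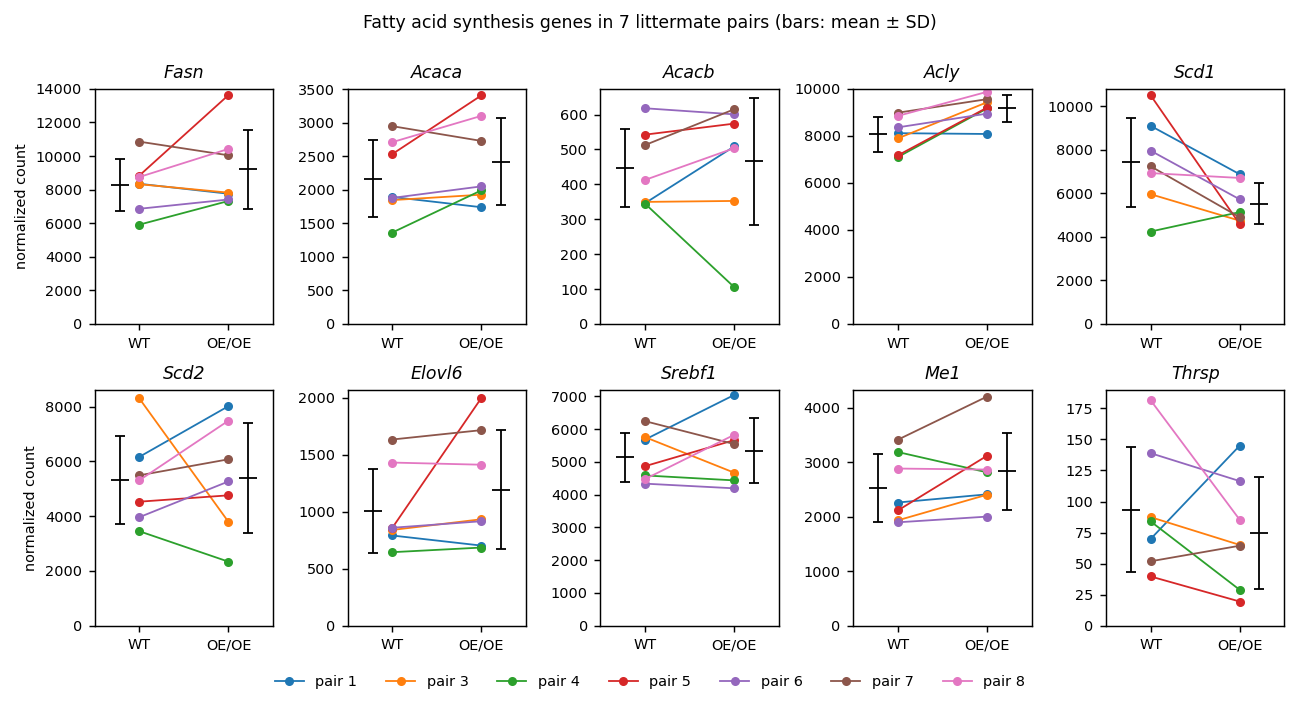
Normalized counts of the 10 genes, 1 panel per gene with the vertical axis from 0, WT on the left and OE/OE on the right. Coloured lines join the littermates of each of the 7 pairs, and black bars give the mean and SD. The genotypes overlap in every panel, and 6 of the 7 Acly lines rise, between 7093 and 9866, while those of Thrsp cross, between 19.4 and 181.

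Whether Usp22 overexpression changed the pathway was asked by comparing littermates on the scale log2(normalized count + 1), with limma, the pair as a block and the unadjusted p of 0.05 used in the study as the threshold. Of the 10 genes, Acly rose and Scd1 fell in OE/OE, and the other 8 did not pass the test. That is 2 of 10, beside 3.81% of all 16124 genes called in either direction (1.95% higher, 1.85% lower). After Benjamini-Hochberg adjustment over all genes none of the 10 passed at 0.05 in limma, edgeR or DESeq2, each of which called 2 at the unadjusted threshold, and limma's adjusted p was 1.00 for all 10. In all genes 0.0124% passed after adjustment. In limma 6 of the 10 log2 fold changes were above 0, with a median of 0.09 beside -0.00 over all genes. The libraries of the 2 genotypes overlapped for each of the 10, while they did not overlap for 0.0434% of all genes. Of all genes 14.1% were higher or lower in at least 6 of 7 pairs, the share to set beside such counts below.

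Acly, the first enzyme of the pathway, was modestly higher in OE/OE. Its normalized counts were 8108, 7887, 7093, 7164, 8355, 8979 and 8842 in the WT mice of pairs 1, 3, 4, 5, 6, 7 and 8, and 8074, 9422, 9159, 9193, 8939.8, 9553 and 9866 in their OE/OE littermates. The OE/OE libraries filled the upper end, with 5 of the 7 above every WT library, and only pair 1 was level. WT mice averaged 8061 ± 743 and OE/OE mice 9172 ± 569.9 (SD, n = 7). The log2 fold change was 0.19 (SE 0.07, 95% interval 0.03 to 0.35), a 1.14-fold rise. The pairs gave log2 ratios from -0.01 to 0.37, higher in 6 of 7 pairs, with an unadjusted p of 0.0265 in limma and 0.0312 in the exact two-sided sign-flip test, where 0.0156 is the smallest that 7 pairs allow. Acly no longer passed limma's unadjusted threshold without pair 3, pair 4 or pair 5, or without the block, with log2 fold changes of 0.18, 0.16, 0.16 and 0.19. Among the 10 genes Acly also had the smallest share of its log2 variance between litters, 34.4%, and the largest between genotypes, 43.9%.

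Scd1, the stearoyl-CoA desaturase typical of lipogenic tissue, was lower in OE/OE. The WT libraries had 9108, 5965, 4249, 10509.5, 7965, 7248 and 6936 normalized counts in the order of the pairs above, and the OE/OE libraries 6879.7, 4746, 5144, 4584, 5725, 4903 and 6712. The WT mice were widely spread and the OE/OE mice were not, and pair 4, whose WT library was the lowest of its genotype, went the other way. WT mice averaged 7426 ± 2046 and OE/OE mice 5528 ± 941 (SD, n = 7). The log2 fold change was -0.39 (SE 0.15, 95% interval -0.72 to -0.06), a change of -23.8%. Ratios ran from -1.20 in pair 5 to 0.28 in pair 4, lower in 6 of 7 pairs, with an unadjusted p of 0.0257 in limma and 0.0469 in the exact two-sided sign-flip test. Without pair 5 the log2 fold change was -0.26 and no longer passed the unadjusted limma threshold. Leaving out pair 6 or pair 7 also ended the call, at -0.38 and -0.36. Without pair 4 the log2 fold change was -0.50 and still passed, beside 8.47% of all genes in that fit.

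Scd2, the close relative of Scd1 that predominates in brain and in early development, did not follow it. Normalized counts of Scd2 were 6169, 8304, 3451, 4531, 3965, 5495 and 5314 in the WT mice and 8023, 3791, 2338, 4764, 5272, 6081 and 7493 in OE/OE. Pairs 3 and 4 were clearly lower in OE/OE and the other 5 pairs were higher. The log2 fold change was -0.03 (SE 0.19, 95% interval -0.45 to 0.40, exact two-sided sign-flip p = 0.891). In 5 of 7 pairs the log2 ratio of Scd1 was below that of Scd2, and Scd1 made up 41.8% to 69.9% of the summed normalized counts of the 2 genes in WT and 44.6% to 68.7% in OE/OE. The difference of the 2 log2 ratios, a comparison chosen after the values were seen, averaged -0.37 ± 0.84 (SD over 7 pairs), and the exact two-sided sign-flip p was 0.312, so different responses of the 2 desaturases were not shown. Scd1 is at chr19:44394455-44407879 on the minus strand and Scd2 at chr19:44293674-44306864 on the plus strand, and 965 of 1068 aligned coding bases are identical, 90.4%. Even so, 3.15% of the 75-base windows of Scd1 and 1.78% of those of Scd2 occur in transcripts of another gene, mostly each other and Scd3.

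**Figure D2:**
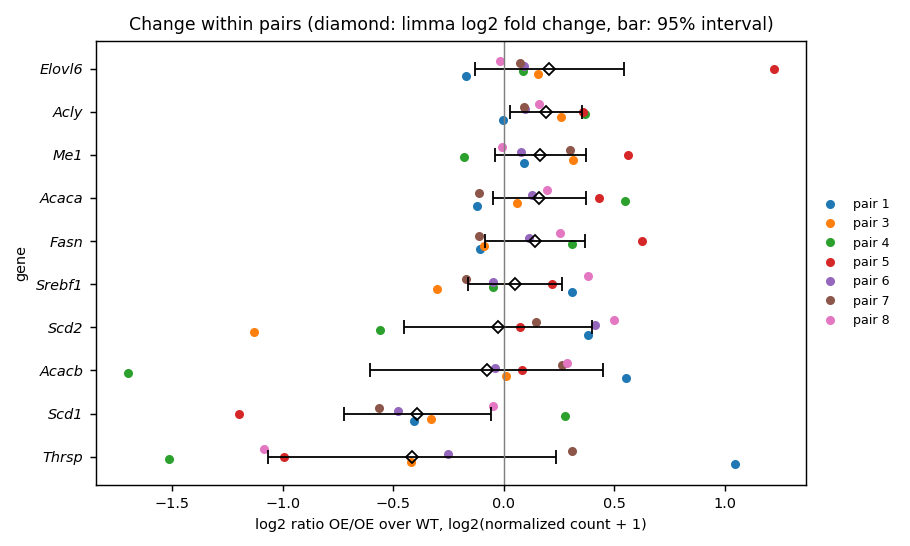
Log2 ratio of OE/OE over WT on the horizontal axis for each of the 10 genes, 1 coloured point per littermate pair. Diamonds give limma's log2 fold change and bars its 95% interval, and only the intervals of Acly (0.03 to 0.35) and Scd1 (-0.72 to -0.06) lie clear of 0.

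At the carboxylation and synthesis steps neither genotype stood out. Fasn ranged from 5914 through a median of 8348 to 10858 normalized counts in WT and from 7325 through 7820.1 to 13634 in OE/OE. Means were 8270.3 ± 1571 and 9203 ± 2330.2 (SD, n = 7), and the log2 fold change was 0.14 (SE 0.10, 95% interval -0.09 to 0.37, exact sign-flip p = 0.219). It was higher in 4 of 7 pairs, with pair 5 the furthest at 0.63. Acaca had a lowest, median and highest normalized count of 1362, 1893 and 2949 in WT and of 1740.0, 2051 and 3407 in OE/OE, with a log2 fold change of 0.16 (SE 0.09, 95% interval -0.05 to 0.37, exact sign-flip p = 0.156). The ratio of Acaca was highest in pair 4, at 0.55, and without that pair its log2 fold change was 0.10 and did not pass. For Fasn and Acaca the interval over all pairs takes in no change and a rise of the size seen for Acly. Of the 75-base windows of Acaca, 26.8% also occur in other genes, chiefly the pseudogene Gm5182, and how such fragments were counted is not given in the sources used here, so its level is uncertain.

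Acacb was lower in 1 mouse rather than in 1 genotype. Its WT libraries had 346, 349.6, 345, 542, 618, 512 and 413 normalized counts and its OE/OE libraries 508, 352, 106, 574, 600.4, 615 and 503. The OE/OE mouse of pair 4 lay far below the other 13, and 5 of 7 pairs were higher in OE/OE. The log2 fold change was -0.08 (SE 0.24, 95% interval -0.61 to 0.45, exact sign-flip p = 0.969), and without pair 4 it was 0.19, which did not pass. Acaca and Acacb share 72.3% of 6911 aligned coding bases, and none of the 75-base windows of Acacb occurs in another gene.

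The elongase and the malic enzyme had means above those of WT without passing the test. Elovl6 had a lowest, median and highest normalized count of 644, 856 and 1632 in WT and 685, 933 and 1996 in OE/OE, and a log2 fold change of 0.20 (SE 0.15, 95% interval -0.13 to 0.54, exact sign-flip p = 0.266). Pair 5 alone was above 1 and the other 6 pairs lay between -0.17 and 0.15, and without pair 5 the log2 fold change was 0.04. Me1 had a lowest, median and highest normalized count of 1899, 2263 and 3416 in WT and 2003, 2817 and 4208 in OE/OE, with a log2 fold change of 0.17 (SE 0.09, 95% interval -0.04 to 0.37, exact sign-flip p = 0.156). Without pair 4, where it was lower in OE/OE, the log2 fold change of Me1 was 0.22 and passed the unadjusted limma threshold. In that fit 8.47% of all genes passed, against 3.81% with all pairs. In Me1 20.0% of the 75-base windows occur in other genes, chiefly the pseudogene Gm7049, and the antisense gene A330041J22Rik overlaps its exons, so that reads of the 2 could not be told apart if the counting did not use strand.

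The regulators gave no call either. Srebf1 had a lowest, median and highest normalized count of 4336, 4869 and 6245 in WT and 4193, 5545 and 7044 in OE/OE, and a log2 fold change of 0.05 (SE 0.09, 95% interval -0.16 to 0.26, exact sign-flip p = 0.625). It was higher in 3 pairs and lower in 4. Exons of Srebf1 overlap those of Rai1 on the other strand. The table counts the gene as a whole, so SREBP-1a and SREBP-1c transcripts were not separated. Thrsp was scarce, with 18 to 163 fragments per library. Its normalized counts were 69.9, 87.4, 83.9, 39.6, 139, 51.9 and 181 in the WT mice and 145, 65.0, 28.8, 19.4, 116, 64.4 and 85.2 in OE/OE, a 9.35-fold span over the 14 libraries. It was lower in 5 of 7 pairs, with a log2 fold change of -0.42 (SE 0.29, 95% interval -1.07 to 0.24, exact sign-flip p = 0.25). Pair 1 went furthest the other way, at 1.04. Without pair 1 the log2 fold change was -0.66 and passed the unadjusted limma threshold, as did 7.42% of all genes in that fit. Without pair 4, the lowest at -1.51, the log2 fold change of Thrsp was -0.23 and did not pass.

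More of the variance lay between litters than between genotypes for 9 of the 10 genes, all but Acly, and litter and shared handling of littermates cannot be told apart. The shares are of raw sums of squares, and litters outnumber genotypes, which by itself makes the litter share the larger. They are therefore read beside those of all genes. Of the variance of the log2 values over the 14 libraries, a median of 71.0% over the 10 genes lay between litters and 5.28% between genotypes, beside medians of 73.9% and 1.43% over all genes. The share between litters was highest for Acaca (84.8%), Me1 (82.1%), Elovl6 (79.7%) and Fasn (75.8%), and lowest for Acly and for Scd1 (40.8%). The litter means of Fasn, Acaca and Elovl6 were all at their highest in pairs 5, 7 and 8. The mean log2 level of Acaca was 11.47 to 11.52 in these 3 litters and 10.69 to 10.94 in the other 4, and that of Elovl6 was 10.35 to 10.71 against 9.38 to 9.79. For Fasn the same litters had 13.22 to 13.42 and the others 12.68 to 12.98. Because the litters fell into these separate groups, each too small for a correlation of its own, no pooled correlation of litter means is given. Me1 was highest in pair 7 (11.89) and lowest in pair 6 (10.93), and Thrsp was highest in pairs 6 and 8 and lowest in pair 5, an order unlike that of Fasn. Pair 4 had the lowest litter mean for 7 of the 10 genes, and the share among all genes was not counted.

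**Figure D3:**
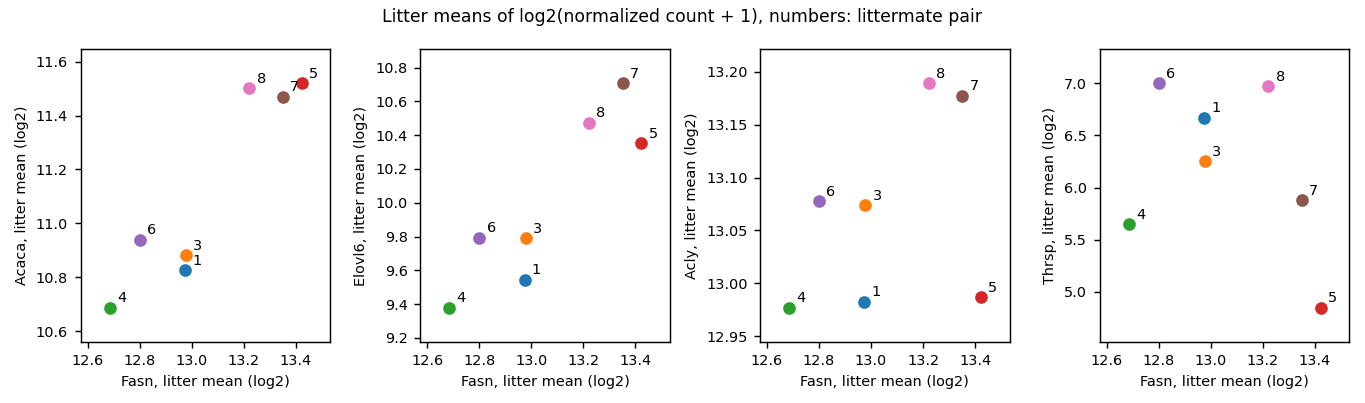
Litter means of log2(normalized count + 1), with Fasn on the horizontal axis and Acaca, Elovl6, Acly and Thrsp on the vertical axes of 4 panels, 1 numbered point per littermate pair. Pairs 5, 7 and 8 form a group at the upper right for Acaca and Elovl6 (Fasn at 13.22 to 13.42), which the Thrsp panel does not show.

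The genotype differences of some genes also went together from pair to pair. Over the 7 pairs the log2 ratio of Fasn was set against that of each of the other 9 genes. Acaca followed it most closely, with Pearson's r of 0.86 (exact permutation p = 0.00972, adjusted over the 9 relations 0.0875) and Spearman's rho of 0.929 (exact permutation p = 0.00675, adjusted 0.0607). The r was 0.87 without pairs 5 and 7, the 2 farthest from the median of Fasn. Elovl6 had an r of 0.78 (exact permutation p = 0.0631, adjusted 0.157) and a rho of 0.50 (exact permutation p = 0.267, adjusted 0.593), and r was 0.24 without these 2 pairs, so that relation rests on them. Acly also went with Fasn, with r of 0.72 (exact permutation p = 0.0696, adjusted 0.157) and rho of 0.821 (exact permutation p = 0.0341, adjusted 0.102), and r was 0.53 without the 2 pairs. Thrsp ran against Fasn, with r of -0.75 (exact permutation p = 0.0530, adjusted 0.157) and rho of -0.821 (exact permutation p = 0.0341, adjusted 0.102), and r was -0.85 without the 2 pairs. None of the 9 adjusted values was under 0.05. In pair 5 the OE/OE mouse was higher for 8 of the 10 genes with a median log2 ratio of 0.29. Over all 16124 genes it was higher for 7696, with a median of -0.02. Pair 5 also had the lowest Scd1 ratio of all pairs.

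Fat cells make the same enzymes, and most of their markers were lower in OE/OE, though the difference of the list did not pass after adjustment. Of 12 adipocyte genes 11 were in the table (Adrb3 was not analysed here), and their mean log2 level was 7.11 ± 0.57 over the WT libraries and 6.36 ± 0.69 over the OE/OE libraries (SD, n = 7). It was lower in 6 of 7 OE/OE mice, by -0.74 on average, with an exact two-sided sign-flip p of 0.0469 (adjusted over 9 marker lists 0.422). The 6 of 11 genes that passed the unadjusted limma threshold, Adipoq, Retn, Cfd, Plin1, Cidec and Car3, were all lower, beside 3.81% of all genes called. Of the other 5, Lipe (0.20, higher in 6 of 7 pairs) and Slc2a4 (0.13, higher in 5 of 7) had log2 fold changes above 0 and Lep, Plin4 and Adig below it, none of them past the threshold. Adipoq, which encodes adiponectin, ranged from 17.1 to 126 normalized counts among WT mice and from 5.39 to 41.3 among OE/OE mice, and none of the 11 was at 0 in any library. Summed normalized counts of the list, made up mostly of Lipe, were 4631 to 7483 in WT and 4374 to 8023 in OE/OE. Fibroblast markers were lower by -0.43 in OE/OE as well, in 5 of 7 pairs (exact two-sided sign-flip p = 0.0938). In bulk RNA, fewer fat cells and less RNA per fat cell cannot be told apart.

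The members did not all move with these markers. Over the 7 pairs, Thrsp followed the adipocyte difference, with Pearson's r of 0.88 (exact permutation p = 0.00794, adjusted over 10 relations 0.0794) and Spearman's rho of 0.893 (exact permutation p = 0.0123, adjusted 0.123), and r was 0.50 without pairs 1 and 4, the 2 farthest from the median. Acacb gave an r of 0.82 (exact permutation p = 0.0212, adjusted 0.106) and a rho of 0.607 (exact permutation p = 0.167, adjusted 0.286), and r was 0.22 without pairs 1 and 4, on which its relation therefore rests. Acaca and Acly ran the opposite way. For Acaca r was -0.74 (exact permutation p = 0.0579, adjusted 0.174), rho was -0.75 (exact permutation p = 0.0663, adjusted 0.166), and r was -0.14 without these 2 pairs. Acly had an r of -0.71 (exact permutation p = 0.0696, adjusted 0.174) and a rho of -0.75 (exact permutation p = 0.0663, adjusted 0.166), and r was -0.01 without these 2 pairs. For Scd1 r was -0.58 (exact permutation p = 0.142, adjusted 0.284), rho was -0.75 (exact permutation p = 0.0663, adjusted 0.166), and r was -0.70 without the 2 pairs. Pairs 1 and 4 were also the ends of the endothelial (0.92 and -1.73) and fibroblast (0.61 and -0.89) marker differences. Relations of the members with those lists were not tested, so none of these relations is shown to be particular to fat cell markers. With the adipocyte marker level as a covariate in limma, the log2 fold change of Scd1 was -0.67 and passed the unadjusted threshold, further below 0 than before. In that fit 17.0% of all genes passed, against 3.81% without the covariate. Acly was then at 0.09 and did not pass, Acacb at 0.55 and did, and Acaca, Scd2 and Thrsp also changed sign. With the luminal marker level as the covariate instead, Scd1 was at -0.27, nearer 0 than without a covariate, and Acly at 0.18. Both passed the unadjusted threshold, beside 4.34% of all genes in that fit. With pairs 1 and 4 both left out, a choice made after the values were seen, Acly was at 0.19, Scd1 at -0.52 and Me1 at 0.25, and these 3 of the 10 passed, beside 11.2% of all genes in that fit. The part of the fat cell markers in the Acly call beyond these values was not tested.

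**Figure D4:**
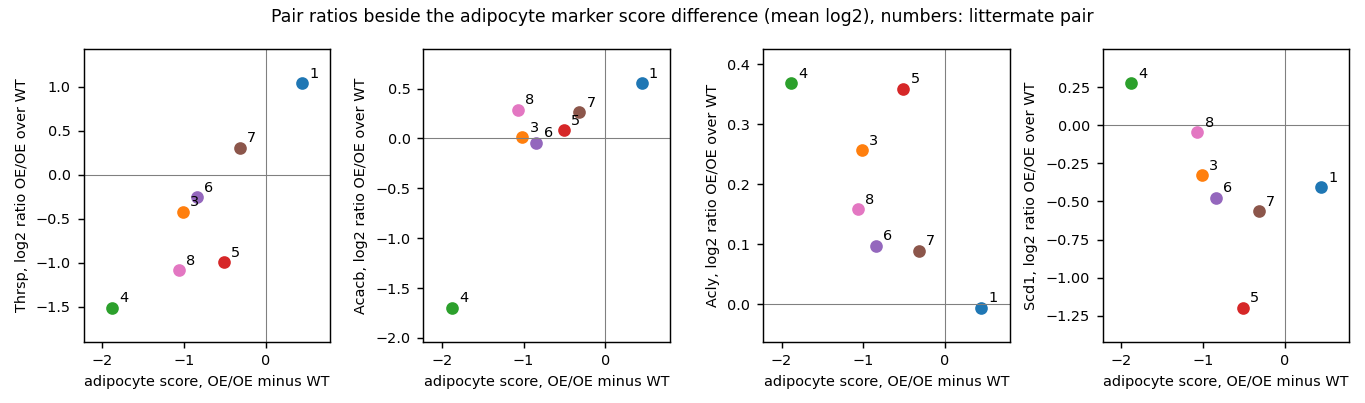
Difference of the mean log2 adipocyte marker level, OE/OE minus WT (horizontal axis), against the log2 ratio of OE/OE over WT for Thrsp, Acacb, Acly and Scd1 (vertical axes of 4 panels), 1 numbered point per littermate pair. Thrsp and Acacb are lowest in pair 4 and highest in pair 1, which are also the ends of the marker axis at -1.88 and 0.44.

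The surrounding pathway was mostly level. Of 76 genes in 4 lists 73 were in the table, and 2 of these (2.74%) rose in OE/OE and none fell, below the 3.81% of all genes, with log2 fold changes from -0.46 to 0.38 and 37 above 0. Neither passed after adjustment (limma adjusted p = 1.00). Among 12 genes that supply citrate, acetyl-CoA and NADPH the median log2 fold change was 0.01, and the only call was Tkt, transketolase of the pentose phosphate pathway. WT mice averaged 6938 ± 1163 and OE/OE mice 8250.3 ± 2571 normalized counts of Tkt (SD). The log2 fold change was 0.21 (SE 0.10), higher in 6 of 7 pairs, with an unadjusted p of 0.0489 in limma and 0.0781 in the exact sign-flip test. The citrate carrier gene Slc25a1 was at 0.04 (SE 0.10) and Acss2, which makes acetyl-CoA from acetate, at -0.15 (SE 0.08), below 0 in 7 of 7 pairs but short of limma's threshold (exact sign-flip p = 0.0156, unadjusted limma p = 0.0913).

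The elongation and desaturation list had 16 of 18 genes in the table (Elovl3 and Scd4 were not analysed here), no call and a median log2 fold change of -0.03. Fads1, the delta-5 desaturase of polyunsaturated fatty acids, came closest at 0.19 (SE 0.08, unadjusted p = 0.0507 in limma, exact sign-flip p = 0.0625), and Scd3 was at -0.46 (SE 0.24, exact sign-flip p = 0.0625) on a mean of 15.5 ± 7.86 normalized counts in WT. None of 24 regulators was called, and their median was -0.00. These included Srebf2, the cholesterol-side relative of Srebf1 (0.12, SE 0.10), its escort Scap (-0.01, SE 0.07), the retention factor Insig1 (-0.01, SE 0.24), the carbohydrate-responsive factor ChREBP, encoded by Mlxipl (-0.03, SE 0.23), and Mid1ip1, the partner of Thrsp (-0.03, SE 0.16). As many as 12 of the 24 were above 0, and their log2 fold changes ran from -0.18 to 0.16.

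Downstream of synthesis, 21 of 22 genes for acyl-CoA use and triglyceride assembly were in the table (Olah was not analysed here), with a median log2 fold change of 0.03. Acsl3, an acyl-CoA synthetase of lipid droplets and endoplasmic reticulum, was the call, with means of 2657 ± 655 normalized counts over the WT mice and 3399 ± 466 over the OE/OE mice (SD). Its log2 fold change was 0.38 (SE 0.11, unadjusted limma p = 0.00811, exact sign-flip p = 0.0156), and it was higher in 7 of 7 pairs, as 1.51% of all genes were higher or lower in all 7. Dgat2, which completes triglyceride, was at -0.35 (SE 0.23, exact sign-flip p = 0.266). With pairs 1 and 4 both left out, 11 of the 73 genes passed, 6 higher and 5 lower, when 1805 of all genes did.

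**Figure D5:**
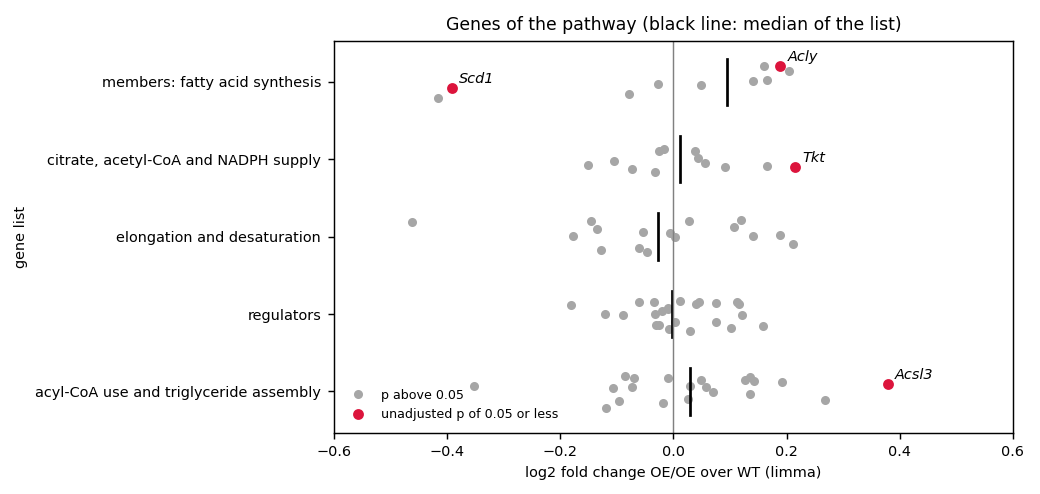
Log2 fold change of OE/OE over WT (horizontal axis; limma, littermate pairs as a block) for the 10 synthesis genes and for 73 further genes in 4 lists, 1 point per gene spread vertically within its list, with a black line at each list's median. Genes that passed limma's unadjusted threshold of 0.05 are red and named, and they are Acly, Tkt and Acsl3 above 0 and Scd1 below.

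The genes most like the 10 in their pattern over the 14 libraries were found by Pearson's r, given as a description of libraries that share litters and depth. The mean of the 10 centred genes was matched best by Nipal3 (r = 0.95), Crebrf (0.95), Acbd5 (0.94), Spry4 (0.94) and Cyth3 (0.93). The 10 genes themselves followed this mean unevenly, with r from 0.23 for Me1, 0.30 for Scd1, 0.33 for Acly and 0.34 for Thrsp up to 0.78 for Acacb. The mean therefore does not stand for each of them. Fasn was closest to Spred2 and Wasl (both 0.95), Acaca to Klhl18 (0.97) and Me1 to Tmem43 (0.94). Acacb was closest to Fam196b (0.98), Thrsp to Higd1b (0.95), Scd2 to Dlg3 and Mcpt4 (both 0.85), and Srebf1 to CT010583.1 (0.84) and Plbd2 (0.79). Scd1 was closest to Postn and Acly to Cln8 (both 0.89). Postn encodes the matrix protein periostin of connective tissue.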

How the data were processed

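RNA-seq libraries of mammary epithelial cells, 1 per mouse from 7 WT and 7 Usp22 OE/OE littermates, were analysed. Cells had been freed from minced glands by collagenase and hyaluronidase, with the fatty layer discarded after centrifugation. Paired reads had been aligned by the authors to mm10 using TopHat2 2.0.10, they counted fragments per gene with HTSeq 0.6.0, kept genes with at least 10 fragments in 7 libraries and divided counts by DESeq 1.18.0 size factors. The deposited signal is thus a normalized count on a linear scale, with no samples pooled. Strand use in counting is not given in the sources used here. All values (100%, tolerance 0.001) were whole multiples of 1 fragment, which gave back the fragments and a depth of 20125106 to 41835978 per library. Depth sets the counting error, which for Thrsp (18 to 163 fragments) is not small.

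All 16124 genes matched GENCODE M21 (GRCm38), the source of positions and exon lengths. Differences were tested with limma 3.58.1 (R 4.3.3, trend) on log2(normalized count + 1), which understates changes of scarce genes, with the littermate pair as a block, over all genes, at an unadjusted p of 0.05 as in the study, with Benjamini-Hochberg adjustment over all genes. Limma stood in for the study's per-gene paired test because of the small groups, and that test was run as an alternative. Single values were tested by exact two-sided sign flips over 7 pairs (128 patterns) and correlations by all 5040 permutations. Each mouse gave 1 library, so the p-values measure the spread between littermate pairs. Pairing comes from the labels and the methods, which match littermates: same-numbered libraries deviated together (median correlation over genes 0.522, range 0.171 to 0.748, in 7 pairs), more than the other 42 combinations on the median (-0.151), although those ranged from -0.538 to 0.634. No 2 libraries agreed within counting noise (smallest chi-square per gene 30.3). Alternatives were other pseudocounts (0.1 and 10), a minimum mean of 50, TMM, quantile normalization, no trend, no block, marker covariates, each pair left out, the per-gene paired test, and edgeR 4.0.16 and DESeq2 1.42.0 on the recovered fragments. The fits were tested on simulated data. All 10 members are named, and other genes are those called in the pathway lists, the closest by correlation, and a few named for their roles or values after these were seen. The members and lists were chosen with earlier results of these data known. The closest genes of Elovl6 are not reported here. Promoter sequences came from RefSeq (GRCm38.p6).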

Additional observations from a re-analysis of the deposited data

Results flagged for a closer look

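In groups of 7 libraries, 40 sets of values (the 10 members, 9 marker lists and Usp22, each in both genotypes) were checked for a library whose gap to its nearest neighbour exceeded Dixon's critical share of the range at 95% for 7 values. By chance about 1 in 20 groups passes this limit, or 2.0 of the 40, and 2 passed. Acacb in OE/OE had its lowest library in pair 4, at a log2 level of 6.73 against 8.47 in the next, a gap of 0.683 of the range. Lymphocyte markers in WT had their highest library in pair 1, at a mean log2 level of 7.48 against 4.59 in the next, a gap of 0.696 of the range. The WT library of pair 1 was also the shallowest, with 20125106 fragments, and the OE/OE library of pair 4 had the lowest endothelial markers (10.38). The part of these markers in the Acacb value was not tested.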

How the results depend on the processing

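Fasn and Elovl6 kept their sign under all 20 alternatives and passed the unadjusted threshold in none of them. None of the 10 genes had an adjusted p under 0.05 in any alternative. The number of synthesis genes called, 2, was 1 without the block, with the per-gene paired test on untransformed counts and with quantile normalization, and 0 to 3 with 1 pair left out. The 614 calls among all genes became 182 without the block, 2742 with the adipocyte covariate, 1805 without pairs 1 and 4 (an alternative chosen after the values were seen) and 381 to 1366 with 1 pair left out. The 2 calls among the 73 pathway genes became 1 without the block and with quantile normalization, 6 with the adipocyte and 5 with the luminal covariate, 11 without pairs 1 and 4, and 1 to 9 with 1 pair left out. The calls of Scd1 and Acly ended in 4 and 6 of the 20 alternatives. Scd1 did not pass at -0.43 in the paired test, nor Acly at 0.15 with quantile normalization. Signs turned with the adipocyte covariate for Acaca (-0.031), Acacb (0.55), Scd2 (0.28) and Thrsp (0.38). They also turned without pairs 1 and 4 for Acacb (0.12), and with the paired test for Acacb (0.060) and Scd2 (0.021). With 1 pair left out, log2 fold changes were -0.18 to 0.19 for Acacb, -0.11 to 0.16 for Scd2 (0.16 without pair 3, 0.06 without pair 4) and -0.0069 to 0.11 for Srebf1 (-0.0069 without pair 8). Where a value moved, the cause was not tested. Without the block the pairing was ignored, and apart from Acly, at 0.19 and past the threshold only with the block, no call among the 10 genes changed. Fragments were fewest for Thrsp (from 18) and Acacb (from 110), and strand, isoforms and shared fragments of Acaca and Me1 could not be resolved from gene totals.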
